A study of Schizosaccharomyces pombe with 56 samples.

Results

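The fission yeast (Schizosaccharomyces pombe) genes that build, read and limit heterochromatin were followed for dimethylation of histone H3 at lysine 9 (H3K9me2) on their own bodies, in cells made quiescent by nitrogen starvation. The 10 genes were clr4, ago1, dcr1, rdp1, swi6, chp1, chp2, clr3, epe1 and atf1. Every region of the deposited table that overlapped an annotated gene body by at least 1 bp was taken, which gave 8 of 2192 regions, 1 each for 8 of the 10 genes. No region overlapped swi6 or chp2, so these genes were not measured. The groups compared were wild type (975 h+) after 24 h without nitrogen and wild type before starvation (0 h). Both have clr4 and ago1 intact and were grown at 32 degrees in minimal medium with supplements. For the 24 h group, cells were then washed into medium without nitrogen. The labels list 6 H3K9me2 ChIP-seq libraries for each of these groups among the 56 libraries of the series. Libraries at 1 h, those of H3K9me3 and those of strains lacking clr4 or ago1 were not analysed here. The table holds 1 mean per group, region and time, in normalised reads. Neither depth nor spread per library is given in it.

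In fission yeast, Clr4 is the methyltransferase that places the mark. Small RNAs made by Dcr1 from double-stranded RNA synthesised by Rdp1 are loaded onto Ago1, which guides Clr4 to chromatin, and the chromodomain proteins Swi6, Chp1 and Chp2 bind the mark. Clr3 is a histone deacetylase that keeps silent chromatin compact, Epe1 is a JmjC-domain protein that opposes the spread of heterochromatin, and Atf1 is a stress-activated transcription factor that starts heterochromatin at the mating-type locus without RNA interference. The machinery is best known from centromeres, telomeres and the mating-type locus. Its own genes lie in euchromatin on the chromosome arms.

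Sequences of the atf1 upstream region and of 4 gene bodies are shown because atf1 was the only member past the threshold, clr3 came nearest to it among the others, clr4 makes the mark, and chp1 was the only member with a lower mean at 24 h. They were read from RefSeq build ASM294v3 in that build's own coordinates, and capitals mark the CRE-type site that Atf1 and its partner Pcr1 are known to bind. The upstream window (chrII:1545967-1546216, + strand) ends 1 base before the annotated start of atf1. The gene-body windows are 150 bases at the middle of the coding sequence covered by the region, at chrII:1548436-1548585 (+ strand) for atf1, chrII:255874-256023 (+ strand) for clr3, chrII:456967-457116 (- strand) for clr4 and chrI:2212272-2212421 (- strand) for chp1.
atf1 upstream: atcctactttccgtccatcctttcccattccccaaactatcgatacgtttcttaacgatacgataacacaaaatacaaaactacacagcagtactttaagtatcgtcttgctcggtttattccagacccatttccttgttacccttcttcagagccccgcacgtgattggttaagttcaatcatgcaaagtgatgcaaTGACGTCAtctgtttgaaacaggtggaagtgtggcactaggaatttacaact
atf1 body: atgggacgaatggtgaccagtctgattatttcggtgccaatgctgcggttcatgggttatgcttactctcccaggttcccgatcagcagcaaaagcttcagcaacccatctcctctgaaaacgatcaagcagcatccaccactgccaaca
clr3 body: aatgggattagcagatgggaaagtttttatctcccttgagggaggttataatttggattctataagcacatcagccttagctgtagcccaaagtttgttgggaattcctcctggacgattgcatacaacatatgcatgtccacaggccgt
clr4 body: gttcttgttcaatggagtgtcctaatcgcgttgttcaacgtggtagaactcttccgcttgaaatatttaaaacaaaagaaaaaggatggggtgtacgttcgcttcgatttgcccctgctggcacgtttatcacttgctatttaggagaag
chp1 body: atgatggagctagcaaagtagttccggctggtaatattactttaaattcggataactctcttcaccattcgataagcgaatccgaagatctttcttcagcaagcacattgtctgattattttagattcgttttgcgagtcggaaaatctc

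The capitals in the atf1 window are TGACGTCA, an overlapping pair of matches to TGACGT, which was searched on both strands. The block begins 52 bases before the annotated gene start. In windows of 250 bases before each gene start, 282 of 5112 protein-coding genes (5.52%) held TGACGT on either strand. Of the 10 members only atf1 did. The region at atf1 begins 1061 bp after the gene start, so the window shown lies outside it.

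Of the 8 measured regions, 7 had a higher mean at 24 h and 1 a lower mean, but only the region at atf1 rose past the authors' FDR of 0.05. Over all 2192 regions 82.0% had a higher mean at 24 h. The regions past the FDR were 20.7% higher and 0.456% lower over the whole table, and 32.7% higher among the 1385 regions with a p below 1. The members' count of 1 of 8 regions higher and 0 lower stands beside these shares. By genes, 1 of 10 members lay under an increased region, against 10.5% of 5113 protein-coding genes, and 0 of 10 under a decreased one, against 0.196%. The authors' deposited table lists 6 of the 8 regions with a p of 1, as it does 36.8% of all regions. Those regions took no part in the FDR and were neither passed nor failed by a test. In bulk chromatin, more cells carrying the mark and more of the mark per cell cannot be told apart.

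The median log2 change over the 8 regions was 4.87 in the authors' deposited table, beside 2.43 over all 2192 regions and 4.75 over the regions past the FDR and higher. Per kb the members were near the whole table. Their median at 24 h was 11.0 normalised reads per kb, beside 10.5 for all regions and 22.2 for those past the FDR and higher. The member regions were also wider, with a median of 2232.5 bp against 1557 bp for all regions. In 6 of the 8 members the 0 h mean was the smallest that the table holds for 0 h (0.770 normalised reads) while the 24 h mean was above its minimum. The same was true of 47.5% of all regions. Their log2 changes are against that minimum. Each fold written here as at least a value was computed against 2.31 normalised reads instead, the mean that 3 counts in every library would give. It bounds the deposited values, since input subtraction before deposit is not stated.

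**Figure D1:**
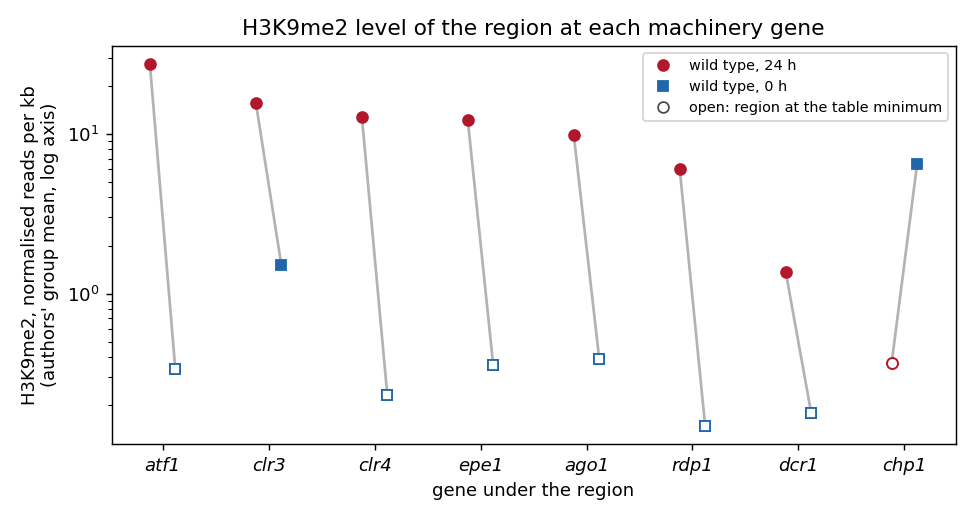
H3K9me2 per kb of region (authors' group mean, log axis) at each measured gene, with wild type at 24 h left of wild type at 0 h and open symbols for regions at the table minimum. The 24 h values run from 27.4 normalised reads per kb at atf1 to 1.37 at dcr1, each above its own 0 h value. Only chp1, at the 24 h minimum, is below its 0 h value.

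Most of the 24 h signal at these genes came from the same library. The group means were resolved into whole reads per library, assuming 5 libraries per group. Reads above the minimum were found in 3 libraries at 24 h, called A, B and C here by falling read number, and in 2 libraries at 0 h, called A and B likewise. The other 2 and 3 libraries stood at the minimum, and none could be tied to a numbered replicate. Library A held reads at 7 of the 8 members, library B at 5 and library C at 1. Library A gave 53.8% to 100% of the normalised 24 h reads of the 7 regions with reads, with a median of 94.6%. At 5 of those 7 its share was 90% or more, as it was for 53.3% of the resolved regions of the table with 24 h reads.

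**Figure D2:**
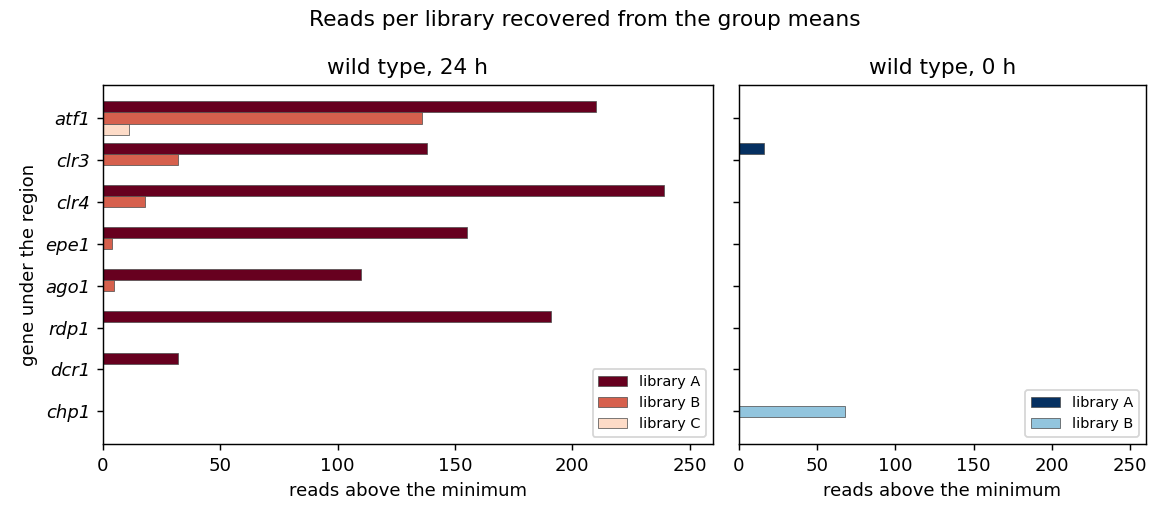
Reads above the minimum in each recovered library at the 8 regions, with 24 h in the left panel and 0 h in the right. Only atf1 has bars for 3 libraries at 24 h (210, 136 and 11 reads), and chp1 has reads at 0 h alone.

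The transcription factor gene atf1 (SPBC29B5.01, chromosome II 1546217 to 1549862, + strand, 2 exons) was the only member to rise. Its region (II 1547278 to 1549578, build ASM294v2) averaged 63.1 normalised reads at 24 h and 0.770 at 0 h in the authors' deposited table. The 24 h reads were 210 in library A, 136 in B and 11 in C, against 0 in both 0 h libraries with signal. Every 24 h library with signal was above every 0 h library at this region, but the 2 remaining 24 h libraries stood at the minimum and so overlapped the 0 h group. The region was at least 27.4-fold higher at 24 h (log2 change 6.36 against the minimum, authors' FDR = 0.00096). Reads in all 3 of these libraries were found for 13.6% of the resolved regions of the table. They were found for 131 of the 460 resolved regions past the FDR in either direction. limma on the recovered values gave a log2 change of 3.54 on the log2(value + 1) scale and an adjusted p of 0.611, with an unadjusted p of 0.0408, so the call rests on the authors' test.

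The region covered 63.1% of the atf1 gene and 100% of its coding sequence, together with 558 bp of untranslated exon and 42 bp of the intron. No other annotated gene lay under it. At 27.4 normalised reads per kb at 24 h and 0.334 per kb at 0 h it was the densest member at 24 h. The median of the regions past the FDR and higher was 22.2 per kb at 24 h. Its log2 change was at or above that of 97.4% of all regions.

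The genes whose levels at the 2 times were most like those of atf1, by distance between log2 levels at 24 h and 0 h, were those under a region over tps3 and SPACUNK4.15 (distance 0.0008), the ER chaperone gene bip1 (0.016) and fhn1 (0.025). The likeness rests on 2 group means only. The tps3 region had 63.2 normalised reads at 24 h and 0.770 at 0 h, but its reads were 367 in library A, 19 in B and 0 in C, and the authors' table lists it with a p of 1. The bip1 region had 202, 85 and 93 reads in libraries A, B and C (FDR = 0.000635 in the authors' deposited table). Regions with nearly the same group means as atf1 thus differed in how many libraries carried them.

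The methyltransferase gene clr4 (SPBC428.08C, chromosome II 453996 to 458410, - strand, 1 exon) lay under a region of 3305 bp (II 454206 to 457510). The authors' deposited table gave it 42.5 normalised reads at 24 h and 0.770 at 0 h, at least 18.4-fold higher, with a p of 1. The 24 h reads were 239 in library A (exact Poisson 95% interval 210 to 271), 18 in B (10.7 to 28.4) and 0 in C, against 0 in either 0 h library. Over all resolved regions, library A held 76.7% of the recovered 24 h reads before normalisation, B 16.8% and C 6.51%. These intervals cover counting error only, and PCR copies are not independent molecules.

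The region covered 63.5% of the clr4 coding sequence, but more of it was untranslated exon than coding sequence. The coding sequence made up 28.3% of the region and 2369 bp were in the long untranslated part of the annotated clr4 exon. That part also holds meu6 (II 454161 to 456553, + strand), which overlapped 71.0% of the region. ChIP reads carry no strand of transcription, so the signal cannot be assigned to clr4 or to meu6.

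The Argonaute gene ago1 (SPCC736.11, chromosome III 334079 to 337070, + strand) lay under a region of 1969 bp (III 334991 to 336959) that was coding sequence throughout and covered 78.6% of the ago1 coding sequence. It had 19.3 normalised reads at 24 h and 0.770 at 0 h, at least 8.38-fold higher, with a p of 1 in the authors' deposited table. Library A held 110 reads at 24 h, B held 5 and C held 0, against 0 in either 0 h library. The neighbouring gene mmi1, which encodes a protein that directs meiotic RNAs to decay, had its own region farther along, with 35.4 normalised reads at 24 h and 12.4 at 0 h (FDR = 0.592 in the authors' deposited table).

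The RNA-dependent RNA polymerase gene rdp1 (SPAC6F12.09, chromosome I 1324941 to 1329061, + strand) shared its region (I 1327667 to 1332878) with ade3, a purine synthesis gene on the opposite strand. The mean was 31.3 normalised reads at 24 h and 0.770 at 0 h in the authors' deposited table, at least 13.5-fold higher with a p of 1. All 191 reads at 24 h were in library A, against 0 in libraries B and C and 0 in either 0 h library. Only 26.8% of the region lay within rdp1, at its 3' part, and 72.7% lay in ade3, so the value is only in part that of rdp1.

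The Dicer gene dcr1 (SPCC188.13C, chromosome III 1504949 to 1510557, - strand) had the lowest 24 h level of the members with a higher mean. Its region of 4302 bp (III 1505364 to 1509665) had 5.88 normalised reads at 24 h and 0.770 at 0 h in the authors' deposited table, at least 2.55-fold higher with a p of 1. All 32 reads (exact Poisson 95% interval 21.9 to 45.2) were in library A at 24 h, against 0 in the other libraries at either time. The septin gene spn6, on the opposite strand, overlapped 34.6% of the region. Reads in library A alone at 24 h with none at 0 h, as at dcr1 and rdp1, were found for 25.0% of the resolved regions.

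Among the genes for chromodomain proteins only chp1 was measured, and it was the only member with a higher mean at 0 h. The region (I 2211304 to 2213391), coding sequence throughout, covered 72.4% of the coding sequence of chp1 (SPAC18G6.02C, chromosome I 2210810 to 2214345, - strand). It stood at the 24 h minimum of 0.771 normalised reads and had 13.6 at 0 h, at least 5.87-fold lower at 24 h, with a p of 1 in the authors' deposited table. No 24 h library held a read above the minimum, against 68 reads in 0 h library B (exact Poisson 95% interval 52.8 to 86.2) and 0 in 0 h library A. The lower mean therefore rested on 1 library at 0 h. A log2 change as low or lower was listed for 0.274% of all regions.

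The genes swi6 (SPAC664.01C, chromosome I 1702406 to 1704098, - strand) and chp2 (SPBC16C6.10, chromosome II 4349995 to 4351244, + strand) had no row. The nearest region to swi6 lay 1590 bp away over gda1 and SPAC824.09C, with 22.2 normalised reads at 24 h and 5.25 at 0 h and a p of 1 in the authors' deposited table. The nearest to chp2 lay 1041 bp away over ogm4, with 10.6 at 24 h and 0.770 at 0 h and a p of 1 in the same authors' table. A missing row says only that no region was listed there. The annotated lengths of swi6 and chp2 are 1693 and 1250 bp, and the median length of the 8 measured members was 3820 bp. Over all protein-coding genes 54.8% had a row. The median length was 2211 bp for those with a row and 1326 bp for those without.

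The deacetylase gene clr3 (SPBC800.03, chromosome II 254686 to 257138, + strand) was the only member above the minimum at both times. Its region (II 255019 to 256880) had 29.2 normalised reads at 24 h and 2.82 at 0 h in the authors' deposited table, a fold of 10.4. It did not pass the threshold (FDR = 0.0774). At 24 h library A held 138 reads, B held 32 and C held 0, against 16 in 0 h library A and 0 in 0 h library B. The groups overlapped, since 24 h library C had fewer reads than 0 h library A. The region was coding sequence throughout and covered 90.2% of that of clr3, and 1 long non-coding RNA (SPNCRNA.1331) was annotated across all of it on the opposite strand.

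The gene of the anti-silencing factor epe1 (SPCC622.16C, chromosome III 1431048 to 1435041, - strand) lay under a region of 2164 bp (III 1432168 to 1434331), again coding sequence throughout. The authors' deposited table gave 26.3 normalised reads at 24 h and 0.770 at 0 h, at least 11.4-fold higher, with a p of 1. Library A held 155 reads at 24 h, B held 4 and C held 0, against 0 in either 0 h library. Its mean was close to that of clr3 at 24 h, but with fewer reads in library B.

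Ordered by mean density at 24 h, atf1 (27.4 normalised reads per kb) was followed by clr3 (15.7), clr4 (12.9), epe1 (12.2), ago1 (9.82), rdp1 (6.00), dcr1 (1.37) and chp1, which stood at the minimum. The table gives no spread for these means, so neighbours in this order were not tested. Within library A the raw densities were 91.3 reads per kb at atf1 (exact Poisson 95% interval 79.3 to 104), 74.1 at clr3 (62.3 to 87.6), 72.3 at clr4 (63.4 to 82.1) and 71.6 at epe1 (60.8 to 83.8), whose intervals overlap. They were 55.9 at ago1 (45.9 to 67.3), 36.6 at rdp1 (31.6 to 42.2) and 7.44 at dcr1 (5.09 to 10.5), and the intervals of rdp1 and dcr1 overlap no other member's. In library B atf1 stood apart, with 59.1 reads per kb (49.6 to 69.9) against 17.2 at clr3 (11.8 to 24.3) and 5.45 at clr4 (3.23 to 8.61). At 53.8%, the share of library A was lower at atf1 than at the other 6 members with 24 h reads. Over the resolved regions with 24 h reads, its median share was 61.5% for those past the FDR. It was 80.7% for tested regions not past the FDR and 100% for regions that took no part in it.

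**Figure D3:**
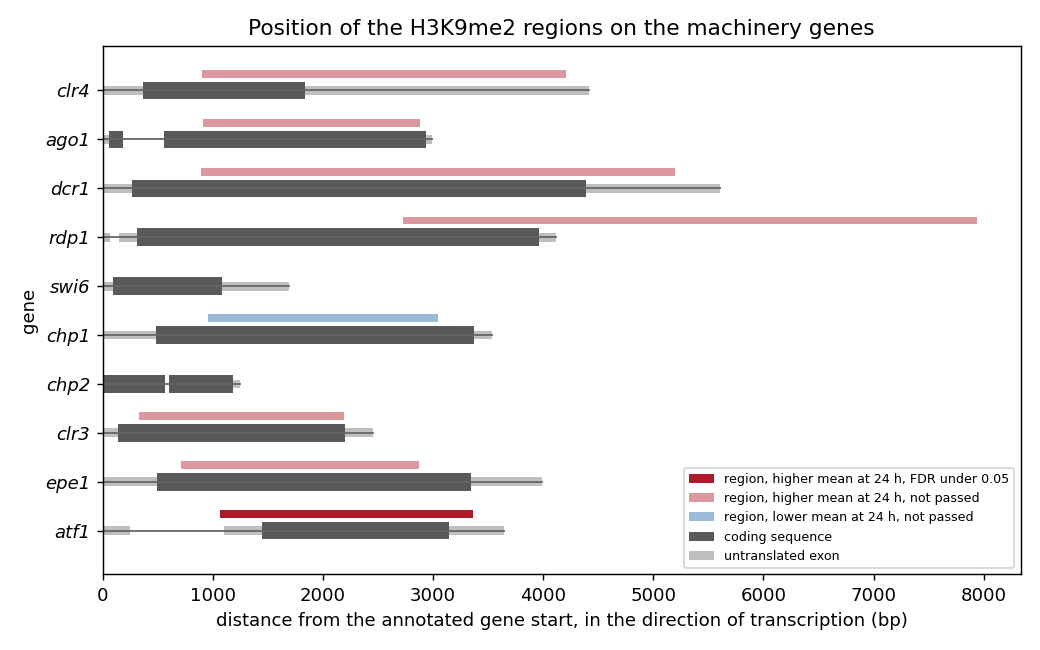
Region position on each of the 10 genes, as distance in bp from the annotated gene start in the direction of transcription, with coding sequence in dark grey and untranslated exons in light grey. Regions begin 333 to 2726 bp after the gene start, only that of rdp1 passes the gene end, and swi6 and chp2 carry none.

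Of the 8 regions 7 lay wholly inside the member gene, beside 78.2% of the 2187 regions on chromosomes I, II and III that lay wholly inside a protein-coding gene. The exception was rdp1, whose region ran past the gene end into ade3. None of the 8 covered the annotated gene start, and 1 covered the gene end. Over all protein-coding genes with a row, 7.64% had the start covered and 33.5% the end. Regions began 333 bp (clr3) to 2726 bp (rdp1) after the gene start. Long non-coding RNAs were annotated under 6 of the 8 regions, and chp1 and atf1 were the exceptions.

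**Figure D4:**
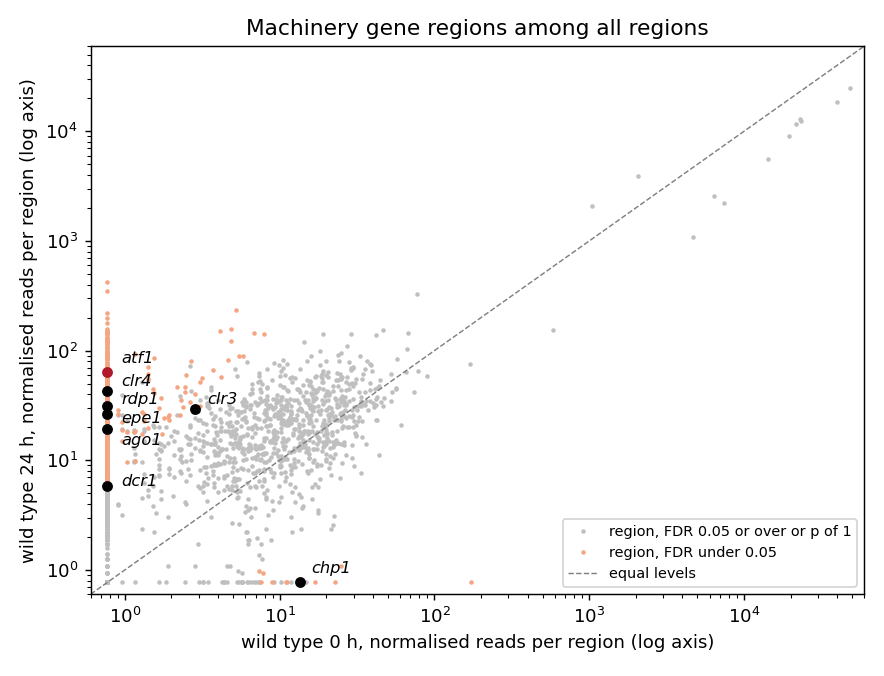
Normalised reads per region at 24 h (vertical) and 0 h (horizontal), both log axes, for all 2192 regions with the 8 member regions named. The regions of atf1, clr4, rdp1, epe1, ago1 and dcr1 stand on the 0 h minimum at the left edge, clr3 lies at 29.2 and 2.82, and chp1 lies on the 24 h minimum.

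The other genes of the pathway gave few calls. Of 66 further genes for heterochromatin assembly, RNA interference, histone deacetylation, chaperones and remodellers, anti-silencing, RNA elimination, telomeres, Atf1 signalling and CENP-B proteins, 45 had a row. By the authors' deposited FDR, 2 lay under a region that rose and 0 under one that fell, while 18 had a tested region that did not pass, 25 had regions with a p of 1 only and 21 had no row. The share that rose, 3.03%, stands beside the 10.5% of all protein-coding genes. The median log2 change of their 47 regions was 1.59, beside 2.43 for all regions.

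The genes under regions that rose past the FDR were mst2 and sty1. The gene mst2 encodes a histone acetyltransferase that opposes silencing, and sty1 the stress-activated kinase that phosphorylates Atf1. The region over mst2, which also touched sec3, had 14.8 normalised reads at 24 h and 0.770 at 0 h, a fold of at least 6.43 (FDR = 0.0101 in the authors' deposited table). Its 24 h reads were 58 in library A, 24 in B and 0 in C, against 0 at 0 h. The region over sty1 had 14.9 normalised reads at 24 h and 0.770 at 0 h, a fold of at least 6.44 (FDR = 0.00992 in the authors' deposited table), with 47, 33 and 0 reads in 24 h libraries A, B and C, against 0 at 0 h. As at atf1, both had reads in more than 1 library at 24 h. This was usual past the FDR. Of the 460 resolved regions past it, 320 had reads in 2 libraries at 24 h and 131 in 3. The members clr4, ago1, clr3 and epe1 also had reads in 2 libraries at 24 h, and none of them was past the FDR. pcr1, the gene of the DNA-binding partner of Atf1, had 4.12 normalised reads at 24 h and 12.6 at 0 h and did not pass (FDR = 0.457 in the authors' deposited table).

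For the partners of Clr4 and of the RNA interference proteins few values were listed. Of 5 genes for the Clr4 complex 1 had a row, cul4, with 66 reads in 24 h library A alone, against 0 at 0 h. Of 7 genes for partners of Ago1, Rdp1 and Dcr1 also 1 had a row, hrr1, a helicase gene with 2 regions whose log2 changes were -0.39 and 3.25, both with a p of 1 in the authors' deposited table. These counts were not tested against the 54.8% of all protein-coding genes with a row.

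The pathway genes with the highest 24 h means per region, not scaled to region width, did not pass the threshold. The region at the gene annotated as abp1 (chromosome I 5262297 to 5264501) had 75.3 normalised reads at 24 h and 11.1 at 0 h in the authors' deposited table (FDR = 0.208). The gene was listed as a CENP-B homologue by symbol alone, and which protein it encodes was not checked. Its reads were 264, 98 and 86 in 24 h libraries A, B and C, against 81 in 0 h library A and 0 in B. The region shared by set2, a histone methyltransferase gene, and ino80 had 67.7 normalised reads at 24 h and 8.31 at 0 h, and the region shared by ccq1, a telomere protein gene, and ubp5 had 50.1 at 24 h and 0.770 at 0 h. Their 24 h reads, 419 and 309, were all in library A, and the authors' deposited table lists both with a p of 1. The corepressor gene pst1 had 43.4 normalised reads at 24 h and 26.7 at 0 h (FDR = 0.898 in the authors' deposited table). The region shared by the exosome gene rrp6 and mkh1 had 35.6 at 24 h and 15.3 at 0 h, with a p of 1 in the authors' deposited table. Per kb of region the order differed. At 24 h abp1 had 34.2 normalised reads per kb, pst1 11.3, set2 10.1, ccq1 9.05 and rrp6 7.24. Of the genes that passed, sty1 had 19.6 per kb and mst2 9.70.

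Reads in 1 library only were common where the authors' table gave a p of 1. Among the 806 resolved regions with that p, 85.4% had reads in 1 library at 24 h, against 0.652% of the 460 regions past the FDR. Of the 6 members listed so, dcr1 and rdp1 had reads in 1 library at 24 h, clr4, ago1 and epe1 had 91.4% to 96.9% of their 24 h reads in library A, and chp1 had reads in 1 library at 0 h. Without library A, 5 of the 8 member regions had a higher mean at 24 h, 2 (dcr1 and rdp1) had no reads at either time and chp1 was lower. Of those 5, all but atf1 then rested on library B alone. It held 32 reads at clr3, 18 at clr4, 5 at ago1 and 4 at epe1. Over the whole table, 35.9% of the 2174 resolved regions had a higher mean at 24 h without library A. The part of library A in these results was not tested further, since what sets it apart is not given in the labels.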

How the data were processed

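Chromatin from cross-linked cells was immunoprecipitated for H3K9me2 and sequenced. The submitters' processing notes name Bowtie2 2.2.7, MACS2 2.1, DiffBind 1.16.3, DESeq2 and build ASM294v2, without role or order. Input subtraction, merging of regions and filters are not stated in these sources. Group means came as log2 values that the authors deposited, per the file headers. Their unit is mean normalised reads. The log2 fold runs 0 h minus 24 h there, and its sign was turned here so that positive is higher at 24 h. The authors also deposited a p-value and an FDR for every region. That FDR equalled a Benjamini-Hochberg adjustment over the 1385 regions with a p below 1, to within 1.5e-15.

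The table holds group means, so the authors' FDR was used with a threshold of 0.05, in place of a test per library. Means up to 600 normalised reads were resolved into whole reads for an assumed 5 libraries per group, within a relative tolerance of 3e-14. The assumed 5 is the number of digits in the set number of the workbook name. The labels list 6 libraries per group, and which of them entered the means is not stated. Each of 2175 regions at 24 h and 2177 at 0 h gave 1 solution. The recovery was checked on simulated regions with known reads. Those regions were built with the same 5 libraries, minimum and value per read. The check therefore cannot test these settings, or which libraries stood at the minimum. The log2(value + 1) values of 2174 regions were then fitted with limma 3.58.1 under R 4.3.3, with a trend on the mean and with libraries lacking signal set to 0. Nothing in the labels says whether replicates were separate cultures, so its p-values measure the spread between these libraries. The libraries set to 0 by assumption are part of that spread.

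Genes came from RefSeq ASM294v3, whose nuclear chromosome lengths equal the last region ends of the table. Region coordinates are those of the table, counted from 1. Of the pathway list all 66 symbols matched, pcu4 as cul4. Matching was by symbol alone, and abp1, listed as a CENP-B gene, matched a gene on chromosome I. Named were all members, pathway genes past the threshold, the 5 others with the highest 24 h mean per region and the 3 regions most like atf1. cul4, hrr1, pcr1, mmi1 and paf1 were named after their values were seen. The members and lists were chosen with earlier results of these data known.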

Additional observations from a re-analysis of the deposited data

Results flagged for a closer look

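At several genes the recovered reads of 1 library stood far from those of the other 4 assumed for its group. For each region the gap between the highest library and the next was divided by the range of the 5 normalised values, and a ratio above 0.71 was marked. At 24 h, library A was the highest each time, with ratios of 0.906 at clr4, 0.943 at ago1, 0.968 at epe1 and 1 at dcr1 and rdp1. Among the named pathway genes the ratio at 24 h was 0.83 at pst1 and 1 at ccq1, set2 and rrp6. At 0 h the ratio was 1 at chp1, clr3, set2, rrp6 and abp1, each with reads in 1 library. At atf1 it was 0.189 and at clr3 0.71 at 24 h, neither above the limit. How often chance alone would pass 0.71 is not known for counts with 2 or 3 libraries at the minimum. A ratio of 1 arises wherever reads were recovered in 1 library. Of the resolved regions, 25.0% had reads in library A alone at 24 h with none at 0 h, so such marks are common in the table.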

How the results depend on the processing

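Under every alternative run, atf1 kept a higher value at 24 h, and the members' directions did not turn. The log2 change at dcr1 and rdp1 was 0 without 24 h library A, and that at chp1 was 0 without 0 h library B. The count of 1 member under an increased region became 2 with gene bodies extended by 500 bp, which added epe1 (13.4% of all protein-coding genes lay under an increased region at that extension), and 0 with limma on the recovered libraries. Of 2174 regions limma passed 0 after adjustment, and 73 had an unadjusted p under 0.05. The count of 2 pathway genes became 4 with the extension, 1 at an FDR of 0.01 (mst2 no longer passed), 0 for regions with a mean log2 level of at least 3 and 0 with limma. The median log2 change of the 8 regions, 4.87, was 5.41 after scaling to the same total and 3.15 once the median change of tested regions was set to 0, which moves every region by -1.72. It was 3.74 on the log2(value + 1) scale, 3.44 with 3 counts per library at the minimum, and 1.74 with limma, where leaving out each library gave 0.57 (without 24 h library A) to 2.26. With limma atf1 had an adjusted p of 0.611, and 0.458 to 0.943 over the 10 leave-one-out fits. Those 10 were not all distinct, since fits without a library lacking signal were the same within each group. The cause of these moves was not tested. No paired analysis was possible because the deposited columns are group means and the recovered libraries carry no replicate number. The table gives no depth for a library, so its effect was not tested.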

Other observations

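Regions higher at 24 h past the authors' FDR also lay just outside some of these genes. A region 418 bp from epe1 (chromosome III 1429399 to 1430630), over SPCC622.14 and SPCC622.15C, averaged 27.7 normalised reads at 24 h and 0.770 at 0 h, a fold of at least 12.0 (FDR = 0.00437 in the authors' deposited table). A region over the ribosomal protein genes rpl13 and rps1602, 423 bp from paf1, had 27.7 at 24 h and 0.770 at 0 h, a fold of at least 12.0 (FDR = 0.00445 in the authors' deposited table). The region over paf1 itself had 8.65 normalised reads at 24 h and 5.00 at 0 h (FDR = 0.814 in the authors' deposited table). These values are given with no explanation.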
